A study of Homo sapiens with 12 samples.

Results

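The comparison was between unstimulated U251 cells transfected with siPDL1-2, which is 1 of 2 siRNAs against *PD-L1*, and unstimulated U251 cells transfected with the siRNA control, siNC. It used 4 of the 12 RNA-seq libraries of the series, 2 for siPDL1-2 and 2 for siNC, chosen by their labels. U251 cells are a long-established line from a human glioblastoma, and the labels give their genotype as WT. None of the 4 cultures received IFNγ. The siRNAs were on the cells for 48 h before the time at which IFNγ was added to other cultures, where it was present at 100 U/ml for 24 h. The remaining 8 libraries were siPDL1-1 without IFNγ and siNC, siPDL1-1 and siPDL1-2 with IFNγ, 2 of each. Per the study's methods the libraries came from 2 independent experiments, and the labels do not say which library came from which. The p-values measure the spread between libraries of this 1 line.

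PD-L1, the product of *CD274*, is a membrane protein that binds PD-1 on T cells and restrains them, and tumor cells raise it when IFNγ reaches them. An siRNA is a short duplex whose guide strand directs the Argonaute proteins to matching mRNA, which is then cut. Guide strands can also act on other mRNAs through a short stretch near their 5′ end, and transfection itself can alter gene expression, which is why knockdown studies compare with a control siRNA and use more than 1 siRNA per target. The comparison here asks what siPDL1-2 was accompanied by in cells in which PD-L1 was at its resting level.

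The siNC libraries held 19945619 and 38704685 reads on genes and the siPDL1-2 libraries 40278923 and 31678437, within the range of 17101069 to 55657393 over the 12 libraries. Levels are the authors' normalized CPM, or reads of a gene relative to the sequencing depth of its library, as deposited, in which 1 read was worth 0.0240 to 0.0490 CPM in these 4 libraries. All 10 astrocyte and glioma markers looked up, among them *GFAP*, *NES* and *SOX2*, were at 1 CPM or more, and 0 of 6 immune markers were, with 0.0979 to 0.380 CPM for the immune markers together in each library. In a principal component analysis of the 12 libraries each of the 4 lay beside its replicate. In all values below, the first of a pair is replicate 1 and the second is replicate 2, and differences are on the log2(CPM + 1) scale, siPDL1-2 minus siNC, with the standard error and the FDR from limma over all genes tested. The added 1 makes these differences smaller than the fold change for genes near or below 1 CPM. Genes were called with the study's limits, which are an FDR < 0.01 together with more than a 1.5-fold difference.

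With siPDL1-2, 870 of 17982 genes rose and 240 fell. These were 4.84% and 1.33% of the genes tested, and 78.4% of the called genes were higher. The median difference was 0.74 for the genes that rose and -0.69 for those that fell, against 0.03 over all genes tested, and 125 rose and 25 fell by more than 1. Without the fold change threshold, 5107 genes passed FDR < 0.01. In all 1110 called genes the siPDL1-2 libraries lay wholly above or wholly below the siNC libraries, which was also so in 71.5% of all genes tested. Calls were made at all levels of expression above 1 CPM, with 6.96% of genes higher and 1.57% lower between 1 and 10 CPM and 3.61% and 2.02% above 100 CPM, whereas below 1 CPM the shares were 0.822% and 0.159%.

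**Figure D1:**
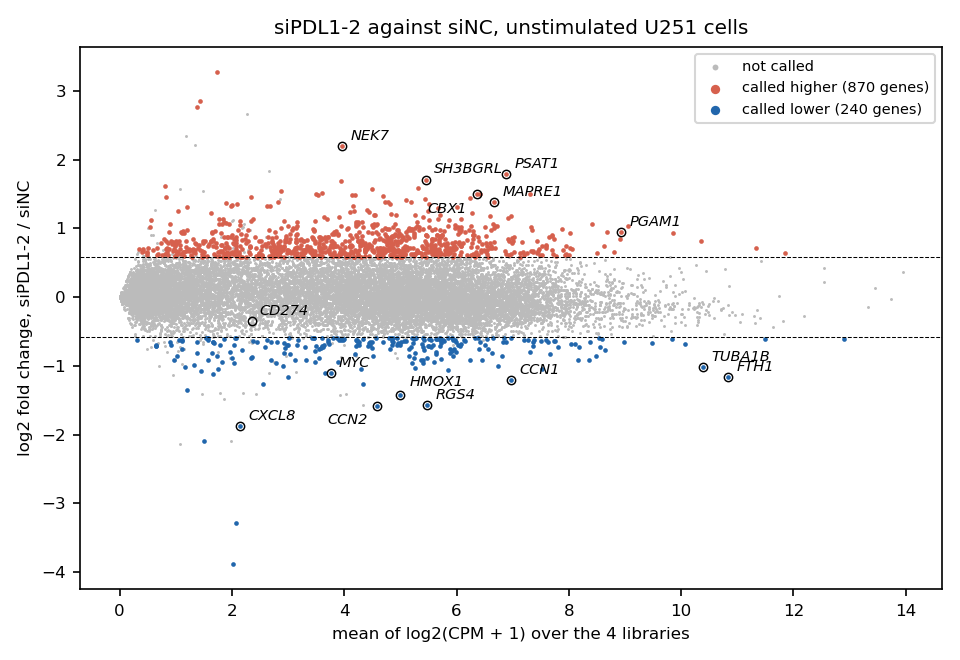
Log2 fold change of siPDL1-2 against siNC in unstimulated cells (vertical axis) by the mean of log2(CPM + 1) over the 4 libraries (horizontal axis), 1 point per gene, with 870 genes called higher in red, 240 called lower in blue and the 1.5-fold limits as dashed lines. *CXCL8*, *CCN2*, *RGS4*, *HMOX1* and *FTH1* lie at the lower edge, *NEK7* and *PSAT1* at the upper edge, and *CD274* at -0.35 between the dashed lines.

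The genes that rose were poor in G and C. The median GC content of their canonical transcripts was 38.7%, against 48.7% for all genes tested and 54.6% for the genes that fell, and they were longer, with a median of 4209 bases against 2888 and 2472 bases. In 10 equal groups of genes by GC content, 23.6% of the lowest group rose and 0.112% fell, with a median difference of 0.34. Of the group highest in GC content, 0.948% rose and 2.79% fell, and the median difference was -0.11. Both siPDL1-2 libraries lay above the mean of the 12 libraries in the lowest group and below it in the highest, and the siNC and siPDL1-1 libraries without IFNγ lay below it in the lowest group. When the trend with GC content and transcript length was removed from every library, 397 genes (2.22%) were called higher and 245 (1.37%) lower, and of the calls above, 328 of 870 and 155 of 240 were made again. The cause of the trend was not tested. Below, "the trend removed" means both GC content and length, and called genes that it left uncalled are named as such.

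**Figure D2:**
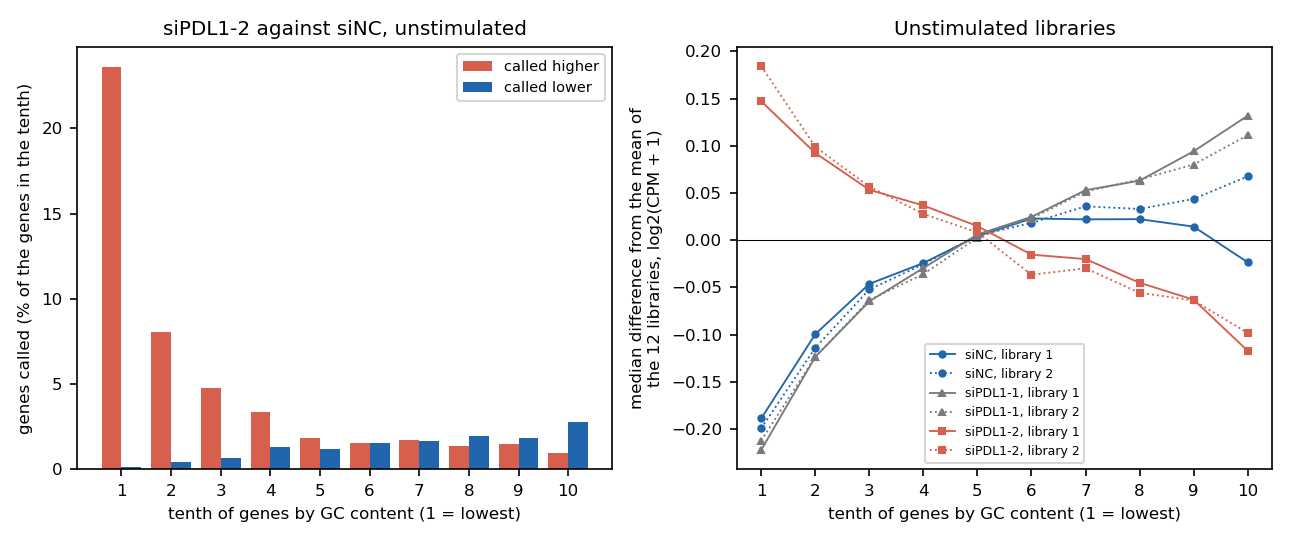
Left, the share of genes called higher (red) and lower (blue) in each of 10 equal groups of genes by GC content of the transcript, from the lowest to the highest. Right, the median difference of each unstimulated library from the mean of all 12 libraries on the log2(CPM + 1) scale in the same groups, where siPDL1-2 runs from above 0 in the lowest to below 0 in the highest and siNC and siPDL1-1 start below 0.

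*CD274* (ENSG00000120217, chromosome 9, 5450503 to 5470566, plus strand, GRCh38) had a mean of 4.76 CPM (SD 0.217, n = 2) with siNC and was at 3.57 and 3.45 CPM with siPDL1-2. The libraries did not overlap, as was so in 71.5% of all genes tested, and the siPDL1-2 mean was 0.738 of the siNC mean. The difference of -0.35 (SE 0.0762) passed the FDR limit (FDR = 0.00183 from limma) but not the fold change limit, so the target gene was not called. With the GC and length trend removed, it was -0.54 (FDR = 1.23e-06 from limma), still under the limit. Reads of *CD274* and of *AL162253.2*, which overlaps it on the opposite strand at a mean of 1.90 CPM in these libraries, were not separated by strand.

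Of the 27 PD-L1 and immunosuppressive genes tested, 1 rose and 0 fell, with a median of -0.09. The member that rose was *TDO2*, an enzyme that opens the ring of tryptophan, at 7.00 and 6.25 CPM with siNC and 11.5 and 11.0 CPM with siPDL1-2 (0.68, SE 0.0922, FDR = 3.79e-05 from limma). Its difference was 0.41 with the trend removed and was then not called. *CD47*, which signals to macrophages not to engulf a cell, was at 36.3 and 36.1 CPM against 51.1 and 51.1 CPM. *LIF*, a cytokine of the IL6 family, was at 22.5 and 25.5 CPM with siNC and lay below that with siPDL1-2. Both passed the FDR limit and missed the fold limit, with 0.48 and -0.58. The second PD-1 ligand gene, *PDCD1LG2*, differed by 0.07 (FDR = 0.607 from limma), and the macrophage growth factor gene *CSF1* by -0.38 (FDR = 2.59e-05 from limma). *IDO1* was at 0.196 and 0.101 CPM against 0.0958 and 0.0610 CPM. The chemokine genes *CXCL10* and *CXCL11*, which IFNγ induces, had 3 reads or fewer in each of the 4 libraries, so a difference was not detectable at this depth and no fold change is given.

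Chemokines that attract neutrophils held the largest fall of any gene on the lists. Of the 18 cytokine and chemokine genes tested out of 29, 3 fell and 0 rose, and the 3 were *CXCL8*, *CXCL2* and *CXCL3*, all ligands of the receptor CXCR2. *CXCL8*, which encodes interleukin-8, was at 7.44 and 7.59 CPM with siNC and at 1.58 and 1.07 CPM with siPDL1-2. It was 5.67-fold lower by the means, and the difference on the log2(CPM + 1) scale was -1.88 (SE 0.146, FDR = 2.45e-07 from limma). *CXCL2* was at 3.48 and 3.82 CPM against 1.01 and 1.28 CPM (-1.12, SE 0.130, FDR = 1.00e-05 from limma). *CXCL3* was at 4.70 and 4.71 CPM against 1.89 and 1.95 CPM (-0.96, SE 0.136, FDR = 5.49e-05 from limma). In each of the 3 genes every siPDL1-2 library lay below every siNC library, as in all genes called lower, and all 3 stayed called with the trend removed. *CXCL2* and *CXCL3* are close copies, so the split of reads between them is uncertain. The median of the list was -0.04, and *CCL2*, a monocyte chemokine, had a mean of 4.50 CPM (SD 0.423, n = 2) against 5.51 and 6.07 CPM (0.31, FDR = 0.0827 from limma).

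The 3 chemokine genes lie within 1 cluster on chromosome 4 and each carries the letters GGAATTTCC, a form of the site bound by NF-κB proteins, shortly before its RefSeq start. The stretch is shown for all 3 because these genes fell together. It begins 91 bases before the start of *CXCL8*, 77 before that of *CXCL2* and 78 before that of *CXCL3*. In the deposited table *CXCL3* starts further upstream than in RefSeq, so its site lies inside the gene as counted there. The sites are given with 10 bases on each side, 5′ to 3′ on the strand of the gene, with the matching letters in capitals.
CXCL8, chr4:73740468-73740496, plus strand: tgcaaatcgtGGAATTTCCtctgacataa
CXCL2, chr4:74099254-74099282, minus strand: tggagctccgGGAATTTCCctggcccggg
CXCL3, chr4:74038749-74038777, minus strand: tggagctccgGGAATTTCCctggcccggc
The upstream bases of *CXCL8* and *CXCL2*, from 250 bases before the RefSeq start to the start of the gene in the deposited table, read as follows (RefSeq, GRCh38.p14).
CXCL8, chr4:73740319-73740540, plus strand: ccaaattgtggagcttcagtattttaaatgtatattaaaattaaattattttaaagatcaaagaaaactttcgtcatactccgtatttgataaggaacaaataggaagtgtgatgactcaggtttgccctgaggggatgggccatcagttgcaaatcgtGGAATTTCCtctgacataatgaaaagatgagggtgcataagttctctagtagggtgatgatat
CXCL2, chr4:74099197-74099445, minus strand: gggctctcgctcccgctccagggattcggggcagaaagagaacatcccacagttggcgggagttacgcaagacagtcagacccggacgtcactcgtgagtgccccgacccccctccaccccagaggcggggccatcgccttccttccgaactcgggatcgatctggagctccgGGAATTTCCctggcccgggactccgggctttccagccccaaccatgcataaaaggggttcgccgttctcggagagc
On either strand, these letters occur in the 250 bases before the start in 0.413% of 35116 RefSeq promoters. Counted once per gene, they are in a promoter of 0.532% of the 12208 tested genes with an entry. Of the 169 such genes that fell here, 4 hold them (2.37%). Those 4 are the 3 shown and *NFKBIB*. Among the 22 list members with a promoter entry, 7 hold them, of which *CXCL1* and *CXCL6* had 0 CPM in all 4 libraries. Among the 25 genes with an entry on the NF-κB list below, 7 hold them, and only *NFKBIB* of these was called lower. The match describes the sequence and says nothing of binding in these cells.

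Of 28 genes that NF-κB induces or that regulate it, 4 fell and 2 rose, and the median was -0.24. *TNFAIP3*, which encodes the ubiquitin-editing feedback inhibitor A20, fell from 18.3 and 16.5 CPM to 7.24 and 7.94 CPM (-1.10, SE 0.0784, FDR = 9.84e-08 from limma). *NFKBIB*, an IκB inhibitor gene that overlaps *SIRT2* on the opposite strand, fell from 26.7 and 32.7 CPM to 16.2 and 15.6 CPM (-0.86, SE 0.121, FDR = 1.21e-04 from limma). The other 2 that fell were *RELB* (-0.68), an NF-κB subunit gene, and *TRAF2* (-0.61), an adaptor of the TNF receptor, and those that rose were *TNFAIP8* (0.61) and *VCAM1* (0.60). With the trend removed, *TNFAIP3* and *NFKBIB* were still called and these 4 were not. *VCAM1* was called in 5 of 17 alternative fits. *NFKBIA*, *NFKB1* and *NFKB2* were lower by 0.54, 0.31 and 0.37, each past the FDR limit and under the fold limit, and *RELA*, which was looked up after its value was seen, was lower by 0.20.

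*CCN2* and *CCN1*, matricellular genes that the YAP and TEAD proteins induce, also fell. *CCN2* (CTGF) was at 40.2 and 40.7 CPM with siNC and at 12.8 and 13.0 CPM with siPDL1-2, a 3.13-fold lower mean (-1.58, SE 0.0713, FDR = 1.51e-09 from limma). *CCN1* (CYR61), which encodes a related secreted protein, was at 190 and 190 CPM against 81.8 and 81.9 CPM (-1.21, SE 0.0427, FDR = 1.05e-10 from limma). *NUAK2*, a kinase gene, fell from 15.7 and 14.2 CPM to 7.48 and 7.84 CPM (-0.88). *YAP1* itself rose from 51.4 and 51.9 CPM to 84.9 and 88.5 CPM (0.74, SE 0.0593, FDR = 3.31e-07 from limma). All 4 kept their calls with the trend removed. They were 3 lower and 1 higher of 23 list members, whose median was 0.03, so 19 of the 23 were not called. *ANKRD1*, another YAP target, was at 99.4 and 106 CPM against 91.2 and 87.8 CPM (-0.19, FDR = 0.0158 from limma).

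The promoter of *CCN2* is shown because the gene had the second largest fall of any list member and because it holds the TEAD-type letters CATTCC 3 times. The matches are on the minus strand of the gene, so the printed strand reads GGAATG, in capitals, 169, 104 and 95 bases before the RefSeq start. On either strand the letters are in 11.9% of RefSeq promoters. Counted once per gene, they are in a promoter of 13.2% of tested genes and of 10.7% of the 169 genes that fell here. They are also in 9 of the 16 YAP-TEAD list members with an entry.
CCN2, chr6:131951373-131951622, minus strand, GRCh38.p14: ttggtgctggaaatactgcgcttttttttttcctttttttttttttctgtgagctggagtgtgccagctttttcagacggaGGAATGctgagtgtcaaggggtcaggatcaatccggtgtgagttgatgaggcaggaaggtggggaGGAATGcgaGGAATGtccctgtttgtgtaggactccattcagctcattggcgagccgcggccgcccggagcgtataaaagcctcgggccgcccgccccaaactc

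Antioxidant and iron-storage genes fell together. The transcription factor NRF2 drives genes that keep glutathione and thioredoxin reduced and that detoxify heme and quinones. Of the 31 members of this list that were tested, 9 fell and 0 rose, 25 were below 0, and the median was -0.26. *HMOX1*, heme oxygenase, which degrades heme to biliverdin, iron and carbon monoxide, was at 50.5 and 51.2 CPM with siNC and at 18.2 and 18.5 CPM with siPDL1-2 (-1.42, SE 0.0711, FDR = 3.65e-09 from limma). *FTH1*, the ferritin heavy chain, was at 2754 and 2710 CPM against 1221 and 1217 CPM, a 2.24-fold lower mean (-1.16, SE 0.0330, FDR = 1.25e-11 from limma). Its light chain partner *FTL* was at 9471 and 9389 CPM against 6214 and 6157 CPM (-0.61, SE 0.0353, FDR = 1.39e-08 from limma). In these iron genes the replicates lay within a few percent of each other and the groups were far apart.

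The other 6 NRF2-list genes that fell encode enzymes. *SRXN1*, which repairs oxidized peroxiredoxins, was at 207 and 207 CPM against 120 and 117 CPM (-0.80). *NQO1*, a quinone reductase, was at 517 and 521 CPM against 308 and 302 CPM (-0.77). *TXNRD1*, thioredoxin reductase, was at 481 and 478 CPM against 288 and 293 CPM (-0.72). *AKR1B10*, an aldo-keto reductase, *PRDX1*, a peroxiredoxin, and *TKT*, the transketolase of the pentose phosphate pathway, fell by 0.71, 0.61 and 0.61. The FDR from limma lay between 2.44e-09 for *TXNRD1* and 4.86e-06 for *AKR1B10*. With the trend removed, 9 members were again called lower and 0 higher. *FTL* and *TKT* dropped out, and *GCLM*, the modifier subunit of glutamate-cysteine ligase (-0.30, then -0.69), and *TXN*, thioredoxin (-0.30, then -0.65), came in. The count was 9 in all other alternative fits at these limits. With no fold threshold, 22 members were lower and 2 higher at the FDR limit. *TFRC*, the transferrin receptor through which cells take up iron, was looked up after the ferritin values were seen and was also lower, at 401 and 386 CPM against 210 and 207 CPM (-0.91, SE 0.0401, FDR = 1.15e-09 from limma). The cystine importer gene *SLC7A11* was at 270 and 267 CPM against 305 and 323 CPM (0.23, FDR = 0.119 from limma), and this sign turned with the trend removed. *FTH1*, *PRDX1* and *FTL* have many processed copies in the genome, so some of their reads may have been placed elsewhere.

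**Figure D3:**
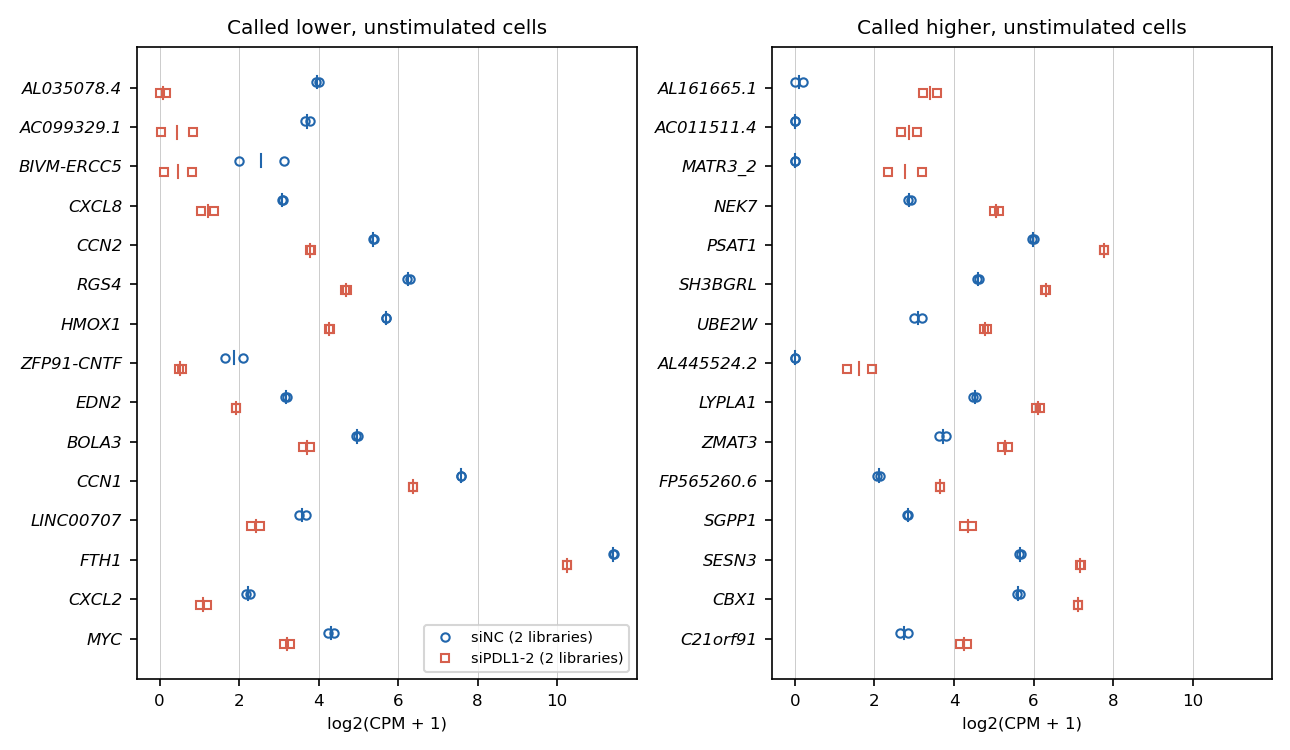
Expression, as log2(CPM + 1), of the 15 genes that fell most (left) and the 15 that rose most (right) in each siNC library (blue circles) and each siPDL1-2 library (red squares), with a bar at the mean of each pair. The genes were chosen among called genes whose 2 pairs are separate, so the separation is not a result. The pairs spread most in *AC099329.1*, *BIVM-ERCC5* and *MATR3_2*.

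Several further genes fell by more than 1 on the log2 scale. *RGS4*, which shortens signaling of G protein-coupled receptors, was at 73.2 and 78.3 CPM against 24.5 and 25.1 CPM (-1.57, SE 0.0798, FDR = 3.98e-09 from limma). *EDN2*, a vasoconstrictor peptide gene, was at 7.93 and 8.20 CPM against 2.76 and 2.78 CPM (-1.27). *BOLA3*, needed for the assembly of iron-sulfur clusters in mitochondria, was at 30.6 and 29.6 CPM against 12.9 and 11.1 CPM (-1.26). *LINC00707*, a long noncoding RNA, was at 10.3 and 11.8 CPM against 4.77 and 3.94 CPM (-1.17). *MYC*, a growth-driving transcription factor, was at 17.9 and 19.9 CPM against 8.65 and 7.72 CPM (-1.11, SE 0.0962, FDR = 6.45e-07 from limma). All 5 were called in all 17 alternative fits.

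*MYC* was 1 of 4 genes that fell among 48 MYC targets and ribosome biogenesis genes, of which 0 rose, 38 were below 0 and the median was -0.24. The others were *BOP1* (-0.71) and *NOP16* (-0.63), which act in ribosome assembly, and *PA2G4* (-0.62), which binds ribosomes and was at 240 and 235 CPM against 156 and 152 CPM. With the trend removed *MYC* and *PA2G4* were still called. The immediate early genes, which growth factors switch on within minutes, were mixed, with 2 lower and 3 higher of 22. *DUSP5*, a phosphatase that turns off ERK, fell from 14.5 and 15.2 CPM to 9.44 and 8.18 CPM, whereas the ERK-induced genes *ETV5* (0.68), *SPRED1* (0.60) and *DUSP6* (0.60) rose, of which *ETV5* alone was still called with the trend removed.

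Genes of cell division were lower as a group by small amounts. Of 54 G2/M genes, 44 were below 0, 9 fell and 1 rose, and the median was -0.32. *CDC20*, which activates the anaphase-promoting complex, fell from 212 and 208 CPM to 128 and 127 CPM (-0.71, SE 0.0513, FDR = 1.06e-07 from limma). *HJURP*, which loads the centromeric histone CENP-A, fell from 117 and 113 CPM to 70.4 and 71.3 CPM (-0.70), and *AURKB*, a mitotic kinase gene, from 107 and 105 CPM to 63.3 and 71.2 CPM (-0.65). *KIF2C*, *GTSE1*, *UBE2C*, *CDCA3*, *JPT1* and *TUBB4B* fell by 0.59 to 0.68. *HMMR*, a GC-poor gene of the mitotic spindle, rose by 0.97 and was at 0.53 and uncalled with the trend removed. With the trend removed the G2/M median was -0.48, again with 9 lower and with 0 higher, and *CDK1* (-0.62), *KIF23*, *DLGAP5*, *ANLN* and *CENPF* took the places of *TUBB4B*, *AURKB*, *CDCA3*, *GTSE1* and *UBE2C*. The proliferation marker *MKI67* was at 864 and 886 CPM against 599 and 583 CPM (-0.57, FDR = 2.33e-06 from limma), just under the fold limit. Of 43 S-phase genes 0 were called, 11 passed the FDR limit alone, 8 of them lower, and the median was -0.07. *MCM2*, of the replicative helicase and chosen after its value was seen, was lower by 0.21 and *PCNA*, the sliding clamp, higher by 0.27. At an unadjusted p under 0.05 from limma, 19 of the 43 differed, 15 of them lower, and DESeq2's and edgeR's count tests also called 0 S-phase genes.

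Tubulin and its regulators moved in both directions. *TUBA1B*, an abundant alpha-tubulin gene, fell from 1923 and 1889 CPM to 946 and 936 CPM, a 2.03-fold lower mean (-1.02, SE 0.0325, FDR = 2.80e-11 from limma), and *STMN1*, which destabilizes microtubules, fell from 494 and 469 CPM to 267 and 261 CPM (-0.86, SE 0.0422, FDR = 2.88e-09 from limma). *MAPRE1*, which encodes the plus-end protein EB1, rose from 63.7 and 60.5 CPM to 164 and 162 CPM, 2.62-fold by the means (1.38, SE 0.0420, FDR = 1.86e-11 from limma). These 3 kept their calls in all alternatives. The full list of 32 had 3 lower and 4 higher members with a median of -0.19, and *SPAST*, *MAP1B* and *KIF5B*, which rose by 0.61 to 0.68, and *TUBB4B* were not called with the trend removed. Alpha-tubulin genes are close copies of each other, so the reads of *TUBA1B* carry that uncertainty.

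Among the genes that rose, *NEK7* and *PSAT1* stood highest outside uncertain loci. *NEK7*, a mitotic kinase that also activates the NLRP3 inflammasome, was at 6.12 and 6.50 CPM with siNC and at 31.1 and 34.0 CPM with siPDL1-2, 5.16-fold by the means (2.20, SE 0.114, FDR = 1.53e-08 from limma). *PSAT1*, the aminotransferase of serine synthesis, was at 63.9 and 60.8 CPM against 216 and 219 CPM, 3.49-fold (1.79, SE 0.0409, FDR = 1.13e-12 from limma), the smallest FDR of any gene named here. *CBX1*, the heterochromatin protein HP1 beta, was at 46.8 and 49.4 CPM against 138 and 138 CPM, 2.87-fold (SE 0.0459 on the log2 scale, FDR = 1.86e-11 from limma). *PGAM1*, phosphoglycerate mutase of glycolysis, was at 344 and 353 CPM against 679 and 671 CPM (0.95, SE 0.0442, FDR = 2.08e-09 from limma). In all 4 the groups were separated by many times the gap between replicates. *CBX1* and *PGAM1* are not GC-poor, with 46.3% and 52.7%, and their differences were 1.49 and 1.03 with the trend removed, while that of *NEK7* (35.4%) was 1.69.

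The other large rises were mostly in GC-poor genes that remained called at a smaller size with the trend removed. *SH3BGRL*, a thioredoxin-fold protein gene, went from 23.6 and 23.0 CPM to 77.0 and 79.2 CPM (1.71, then 1.28). *UBE2W*, a ubiquitin-conjugating enzyme gene, went from 7.00 and 8.10 CPM to 25.9 and 27.2 CPM (1.69, then 1.12), and overlaps the less abundant *AC022826.2* on the same strand. *LYPLA1*, a depalmitoylating enzyme gene, was at 1.59 and then 1.18, and *C21orf91* was 3.15-fold higher by the means and at 0.88 with the trend removed. *SESN3*, a sestrin that restrains mTORC1, went from 48.9 and 50.8 CPM to 142 and 145 CPM (2.87-fold, and 1.11 on the log2 scale with the trend removed), and *SGPP1*, which dephosphorylates sphingosine 1-phosphate, from 6.22 and 6.07 CPM to 18.2 and 21.0 CPM (1.52, then 1.33). *ZMAT3*, an RNA-binding protein gene induced by p53, rose from 13.0 and 11.3 CPM to 35.8 and 40.2 CPM (1.57, then 1.24).

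*PSAT1* had few companions in its pathways. Of 43 ATF4 response genes 2 rose and 0 fell, with a median of 0.08, and the other member was *ALDH1L2*, a mitochondrial folate enzyme gene, at 5.14 and 4.73 CPM against 9.97 and 10.4 CPM (0.92, SE 0.106, FDR = 9.93e-06 from limma). The same 2 were the called genes among 18 of serine and one-carbon synthesis, where 7 were below 0. *PHGDH*, which makes the substrate that PSAT1 uses, was at 2370 and 2358 CPM against 2008 and 1977 CPM (-0.25, FDR = 1.64e-04 from limma), and *PSPH*, the next enzyme, at 120 and 123 CPM against 146 and 146 CPM (0.27, FDR = 1.28e-04 from limma), so the 3 steps of the pathway differed in direction. *ASNS*, asparagine synthetase, was lower by 0.27, and *CHAC1*, which degrades glutathione, was higher by 0.48 and was called with the trend removed. Of 24 genes of the unfolded protein response 12 were higher and 2 lower at the FDR limit alone. The median was 0.20, or 0.16 with the trend removed. With the fold limit 0 fell and 1 rose, *DNAJB9* (0.77), which was not called with the trend removed.

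Chromatin genes that rose with *CBX1* were *BMI1* (1.12), *SUZ12* (0.74) and *SUV39H2* (0.61), 4 of 18 on the list of HP1 and Polycomb proteins, of which 0 fell and the median was -0.02. *BMI1*, of Polycomb complex 1, was at 30.1 and 29.5 CPM against 64.0 and 68.2 CPM and overlaps the read-through gene *COMMD3-BMI1*. It stayed called with the trend removed and *SUZ12* and *SUV39H2* did not. The other HP1 genes, *CBX3* and *CBX5*, differed by 0.11 and -0.08.

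Genes of adhesion and matrix were called in both directions. Of 44 collagens, matrix proteins and integrins, 5 rose and 1 fell, a split near that of all called genes, of which 78.4% were higher. On this list 24 passed the FDR limit upward and 3 downward, and the median was 0.22. *ITGB8*, the integrin beta chain that activates latent TGF-beta, rose from a mean of 31.0 CPM (SD 1.44, n = 2) to 61.8 and 66.1 CPM (1.02, SE 0.0960, FDR = 3.65e-06 from limma), and *ITGA2*, of the collagen receptor, from 30.9 and 32.2 CPM to 56.6 and 56.2 CPM (0.82). *COL8A1* (0.75), *ITGA4* (0.68) and *ITGAV* (0.67) also rose, and *COL6A3*, a collagen VI chain, fell from 77.7 and 79.4 CPM to 46.7 and 44.1 CPM (-0.78, SE 0.0625, FDR = 3.20e-07 from limma). With the trend removed 5 were again higher and 1 lower, with *COL5A1* and *COL16A1* in place of *ITGA4* and *ITGAV*. Of 29 matrix proteases and inhibitors, 3 rose and the count that fell is not given here. *ADAM10* (0.66), *MMP16* (0.65) and *MMP24* (0.76) rose, the first pair not with the trend removed, and *MMP24*, at 1.27 to 3.74 CPM, overlaps the more abundant *MMP24OS* on the opposite strand.

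Of 24 glioma lineage genes 3 rose, 0 fell and the median was 0.18. *PTPRZ1*, a receptor phosphatase of glial precursors, rose from 6.27 and 4.30 CPM to 11.8 and 11.1 CPM (1.00), *S100B*, a glial calcium-binding protein gene, from 2.55 and 2.40 CPM to 5.08 and 5.92 CPM (0.90), and *SOX2*, a stem-cell factor, from 108 and 119 CPM to 164 and 179 CPM (0.59). *SOX2* lay at the fold limit and was called in 11 of 17 alternative fits, but all 3 were called with the trend removed. Of 26 p53 targets 3 rose and 3 fell. *ZMAT3* (1.57), *TP53INP1* (0.95) and *TIGAR* (0.80) rose, and the kinase gene *PLK2* (-0.96), at 56.7 and 59.3 CPM against a mean of 29.4 CPM (SD 0.858, n = 2), *BBC3* (-0.64) and *AEN* (-0.64) fell, of which the last pair did not with the trend removed. *CDKN1A*, the cell cycle inhibitor p21, was at 62.8 and 67.2 CPM against 88.9 and 81.4 CPM (0.38, FDR = 2.55e-04 from limma), under the fold limit.

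Metabolic lists were mixed. Of 34 genes of cholesterol and fatty acid synthesis, *SC5D*, a late enzyme of cholesterol synthesis, rose from 15.8 and 15.1 CPM to 40.8 and 43.3 CPM (1.39, SE 0.0786, FDR = 1.08e-08 from limma), *STARD4*, a cholesterol carrier, rose by 0.99, and *HMGCS1*, which starts the pathway, fell from 85.2 and 83.5 CPM to 51.3 and 50.8 CPM (-0.71, SE 0.0574, FDR = 3.24e-07 from limma). Of 34 hypoxia and glycolysis genes 3 rose, *PGAM1*, the mitophagy receptor gene *BNIP3L* (0.98) and *P4HA1* (0.64), and 2 fell, *ADM* (-0.71), a vasodilator peptide gene, and *ANKRD37* (-0.61). The glucose transporter gene *SLC2A1* was at 407 and 401 CPM against 303 and 297 CPM (-0.43, FDR = 1.75e-06 from limma), and *VEGFA* differed by 0.05. *STARD4*, *P4HA1* and *ANKRD37* were not called with the trend removed. Of 37 nuclear genes of oxidative phosphorylation 29 were below 0, and the median was -0.10. At the FDR limit alone 7 were lower and 3 higher. With the fold limit 0 fell and 1 rose, *ATP5PB* (0.65), which was not called with the trend removed.

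Few interferon genes were called in unstimulated cells, and few calls are due in lists of this size. Of all genes tested, 4.84% rose and 1.33% fell. Of 44 genes of IFNγ signaling and response, 10 were higher and 3 lower at the FDR limit alone. An unadjusted p under 0.05 from limma was found for 17 of them. With the fold limit 1 rose and 0 fell, and the median was 0.02. The one that rose was *JAK2*, the kinase of the IFNγ receptor, from a mean of 14.7 CPM (SD 1.12, n = 2) to 26.6 and 25.9 CPM (0.79, SE 0.0719, FDR = 1.05e-06 from limma), and its difference was 0.36 and not called with the trend removed. The receptor chain gene *IFNGR1* was at 62.2 and 56.9 CPM against 86.7 and 87.3 CPM (0.54, FDR = 3.05e-06 from limma), and *IRF1*, an early interferon response factor, was lower at 19.5 and 16.2 CPM against 12.6 and 12.5 CPM (-0.48, FDR = 1.07e-04 from limma), both under the fold limit. Of 36 type I interferon response genes 0 were called with limma, 8 passed the FDR limit alone, 6 of them higher, and the median was 0.06. At an unadjusted p under 0.05 from limma 14 differed, edgeR's and DESeq2's count tests called 1 each, and a pseudocount of 0.1 in place of 1 called 3, all higher. The largest difference was in *SAMD9L*, at 6.02 and 5.87 CPM against 8.89 and 9.77 CPM (0.57, FDR = 8.82e-06 from limma). Of 14 genes of RNA interference itself 1 rose, *DICER1* (0.61), which cuts small RNA precursors, and it was called in 10 of 17 alternative fits and not with the trend removed. Of 30 semaphorin, plexin and neuropilin genes 0 were called by limma, 8 passed the FDR limit alone and 13 had an unadjusted p under 0.05. Other fits called up to 2, and both count tests called 0. *SEMA6B* was closest, at 72.7 and 77.6 CPM against 111 and 115 CPM (0.58).

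**Figure D4:**
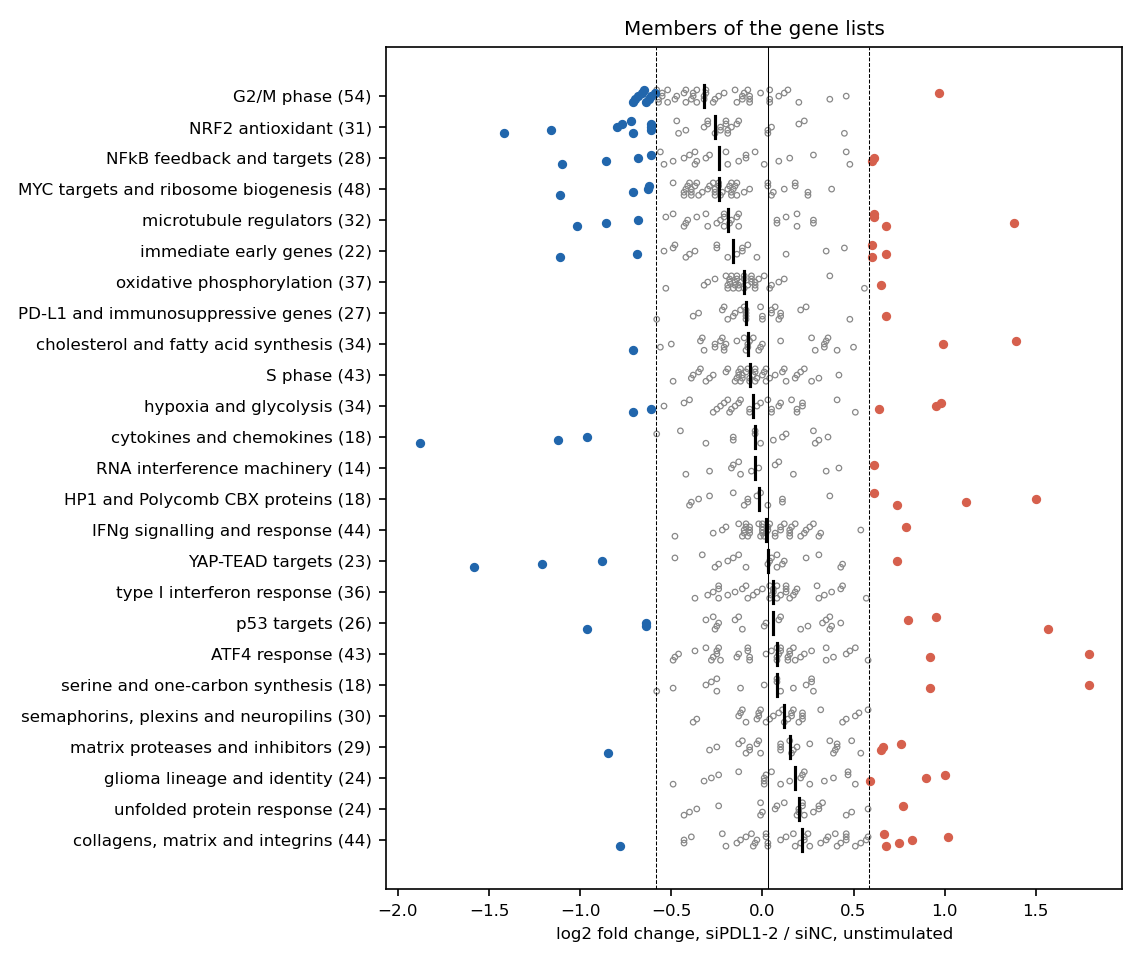
Log2 fold change of siPDL1-2 against siNC in unstimulated cells for every tested member of the 25 gene lists, with the number tested in brackets, genes called lower in blue, called higher in red, others as open circles and a black bar at each median. Lists run from G2/M phase, with a median of -0.32, to collagens, matrix and integrins, with 0.22, the dashed lines are the 1.5-fold limits and the thin line is the median of all genes tested, 0.03.

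Over the 753 tested genes on any list, 5.44% rose and 5.71% fell. The share that rose was near the 4.84% of all genes tested, and the share that fell was above the 1.33% of all genes tested. The lists were chosen with earlier results of these data known, so the second share is not independent evidence.

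A further pair of families was looked up after its abundant members were seen among the calls. All 13 mRNAs encoded in mitochondrial DNA were above 0, with a median of 0.42, and 5 rose, *MT-ND3* (0.84), *MT-CYB* (0.82), *MT-ND2* (0.72), *MT-CO3* (0.64) and *MT-ATP8* (0.64, or 0.46 and not called with the trend removed). *MT-CO3* was at 3013 and 2911 CPM against 4523 and 4714 CPM. The 13 together took 3.67% and 3.79% of all CPM with siNC and 4.98% and 5.18% with siPDL1-2, and 4.70% and 4.74% with siPDL1-1. This share can also move with RNA quality. Both siRNAs are set here against the same siNC libraries, so no likeness is drawn from them. After IFNγ the share was 3.79% and 3.86% with siNC, 4.35% and 4.11% with siPDL1-2 and 4.49% and 4.98% with siPDL1-1. Its part in the other differences was not tested. All 16 heat shock chaperone and co-chaperone genes were below 0, with a median of -0.37, and 4 fell. *HSP90AA1* fell from 1357 and 1349 CPM to 843 and 850 CPM (-0.68), *HSPA8*, the constitutive HSP70, from 480 and 469 CPM to 312 and 311 CPM (-0.61), the inducible *HSPA1A* by 0.92 and *HSPA1B* by 0.59, which was not called with the trend removed. The last pair are near-identical copies, so their split is uncertain. The 16 together took 0.621% and 0.613% of all CPM with siNC, 0.478% and 0.478% with siPDL1-2 and 0.464% and 0.464% with siPDL1-1.

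Among the 15 largest changes in each direction were 8 loci that overlap more abundant genes, so their reads depend on how the counting assigned shared sequence and the values are uncertain. A further gene of that set, *FP565260.6*, a gene model on chromosome 21, was at 3.18 and 3.42 CPM against 11.5 and 11.5 CPM (1.54). *AL035078.4*, which overlaps *PAX6* and *RCN1*, had 308 and 563 reads with siNC and 5 and 0 with siPDL1-2. *AC099329.1*, which overlaps *HIGD1A*, had 236 and 503 reads against 1 and 26. The read-through genes *BIVM-ERCC5* and *ZFP91-CNTF* had 61 and 304 reads against 3 and 25 and 44 and 129 against 20 and 13. *MATR3_2*, which overlaps *MATR3_1* at a mean of 277 CPM, had 0 and 0 reads against 170 and 268, at least 117-fold higher by the floor of 3 reads over the group. *AC011511.4*, which overlaps *RAVER1* and *FDX2*, had 0 and 0 against 306 and 174 reads, at least 129-fold higher, and *AL445524.2* 0 and 0 against 119 and 48, at least 44.8-fold higher. *AL161665.1*, which overlaps *ARHGAP5* on the opposite strand, had 3 and 0 against 344 and 353 reads, a ratio of 187 (95% exact binomial interval 63.7 to 909, counting error only). Of the 8, *AL035078.4* and *AC099329.1* were called in at least 16 of 17 alternative fits and the others in 6 to 9, and the other 6 were not called with the trend removed. *AL161665.1* and *AC011511.4* had 470 and 519 and 285 and 689 reads in siNC libraries with IFNγ.

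siPDL1-2 was also set against the other targeting siRNA without the control between them. In unstimulated cells 624 genes were higher with siPDL1-2 than with siPDL1-1 (3.47%) and 159 lower (0.884%), and with the GC and length trend removed 157 (0.876%) and 112 (0.625%). Of the NRF2 list, 2 genes were lower and 1 higher. *HMOX1* was at 18.2 and 18.5 CPM with siPDL1-2 and differed from siPDL1-1 by -1.48 (SE 0.0711, FDR = 6.31e-09 from limma), and *FTH1* by -0.82 (FDR = 1.04e-09 from limma), *TNFAIP3* by -0.82 (FDR = 3.05e-06 from limma) and *CCN2* by -0.61 (FDR = 1.81e-05 from limma), while *NQO1*, at -0.15, and *SRXN1*, at -0.12, did not reach the fold limit. *CCN2* (-0.54) was not called here with the trend removed. *SGPP1* was higher by 1.28, *SESN3* by 1.00 and *BMI1* by 1.11, and *COL6A3* was lower by 1.12.

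Called genes at the ends of that comparison were partly those that siPDL1-1 moved. *CD164*, a sialomucin gene, was at 99.1 and 91.1 CPM with siNC and at 171 and 180 CPM with siPDL1-2 and was higher than with siPDL1-1 by 1.99 (FDR = 5.22e-06 from limma). *RMND5A*, of a ubiquitin ligase complex, was higher by 1.63 and *GPM6A*, a neuronal membrane glycoprotein gene, by 1.46. The calls of *CD164* (0.88) and *GPM6A* (0.62) against siNC were not made with the trend removed. *OAS1* and *IFI44L*, both induced by interferons, were lower, *OAS1* by 1.62 and *IFI44L* with 5.90 CPM as the mean of siPDL1-1 and 1.44 CPM as that of siPDL1-2, although they differed from siNC by only -0.08 (FDR = 0.608 from limma) and -0.03 (FDR = 0.809 from limma). Of the 36 type I interferon response genes, 12 were lower with siPDL1-2 than with siPDL1-1 and 0 higher. *C4orf48* was lower by 1.39 and *AL035461.3*, an overlapping locus, higher by 2.74.

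Against the shared siNC libraries, siPDL1-1 raised 459 genes (2.55%) and lowered 261 (1.45%). Its differences for the main genes above are given side by side with those of siPDL1-2, and since the control is shared no likeness is drawn from them. They were -1.67 with siPDL1-1 and -1.88 with siPDL1-2 for *CXCL8*, -0.97 and -1.58 for *CCN2*, -1.71 and -1.57 for *RGS4*, 0.06 and -1.42 for *HMOX1*, 1.57 and 2.20 for *NEK7*, 1.43 and 1.79 for *PSAT1* and 1.36 and 1.38 for *MAPRE1*. The direct differences between the siRNAs were 0.36 for *PSAT1*, -0.04 for *CBX1* (SE 0.0459), 0.01 for *MAPRE1* (SE 0.0420) and -0.21 for *CXCL8* (SE 0.146), of which that of *PSAT1* passed the FDR limit and missed the fold limit. *CD274* was higher with siPDL1-2 than with siPDL1-1 by 0.29 (FDR = 0.00865 from limma), under the fold limit. Of the 54 G2/M genes, 15 fell and 0 rose with siPDL1-1 against siNC, with a median of -0.52. In the direct comparison 5 of them were higher with siPDL1-2 and 0 lower, with a median of 0.13. The median GC content of these genes was 42.1%. All tested genes with 41.1% to 43.4% GC content had a median direct difference of 0.11.

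After IFNγ, in libraries that share none with the 4 above, siPDL1-2 raised 346 genes (1.92%) and lowered 216 (1.20%) against siNC with IFNγ. Of the 870 genes that rose without IFNγ, 99 also rose with it and 8 fell, and their median difference went from 0.74 to 0.09. Of the 240 that fell, 55 also fell and 2 rose, and the median went from -0.69 to -0.39. These genes were picked in the unstimulated libraries, so the medians are a description. Some of the genes named above had close values in both conditions, and no difference between the conditions was called for them. They are given first, without and then after IFNγ, and do not stand for all strong changes. *PSAT1* was at 1.79 and 1.69, *MAPRE1* at 1.38 and 1.21, *PGAM1* at 0.95 and 0.94, *STMN1* at -0.86 and -1.02 and *TUBA1B* at -1.02 and -0.97. *CCN2* was at -1.58 and -0.65, *HMOX1* at -1.42 and -0.72 and *FTH1* at -1.16 and -0.75. The difference between the conditions was called for *CCN2* (0.92, FDR = 4.26e-05 from limma) and *HMOX1* (0.70, FDR = 2.03e-04 from limma) and stayed under the fold limit for *FTH1* (0.41). *CD274* was at 36.3 CPM (SD 1.76, n = 2) with siPDL1-2 and 73.6 CPM (SD 3.43, n = 2) with siNC after IFNγ, and the difference between its effects was called (-0.65, FDR = 5.37e-04 from limma). The difference was 0.53 for *HMOX1* and -0.36 for *CD274* with the trend removed, and neither was called. *NEK7* (2.20 and 1.22), *SH3BGRL* (1.71 and 0.14), *UBE2W* (1.69 and 0.10) and *BMI1* (1.12 and -0.50) were called as different too.

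The test of the difference itself called 1040 genes (5.78%) in which the siPDL1-2 effect was lower after IFNγ than without it and 330 (1.84%) in which it was higher, and with the GC and length trend removed 147 (0.820%) and 100 (0.558%). Of these 1370 calls, 102 changed sign with the trend removed. The split was 861 and 487 with DESeq2's Wald test and 897 and 460 with DESeq2's size factors. The effect was called lower after IFNγ in 475 of the 870 genes that rose, or 76 with the trend removed, and higher in 1. It was called higher in 51 of the 240 that fell, or 17 with the trend removed, and lower in 0. In some of them the effect changed sign, as in *VAMP4*, at 0.74 without and -0.71 after IFNγ. The genes were picked by their effect without IFNγ, which this test subtracts, so these counts are a description. The median of the genes lowest in GC content, 1 of 10 equal groups, was 0.34 without and -0.17 after IFNγ, and that of the highest group -0.11 and 0.23, so the trend with GC content ran opposite ways in the 2 comparisons.

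**Figure D5:**
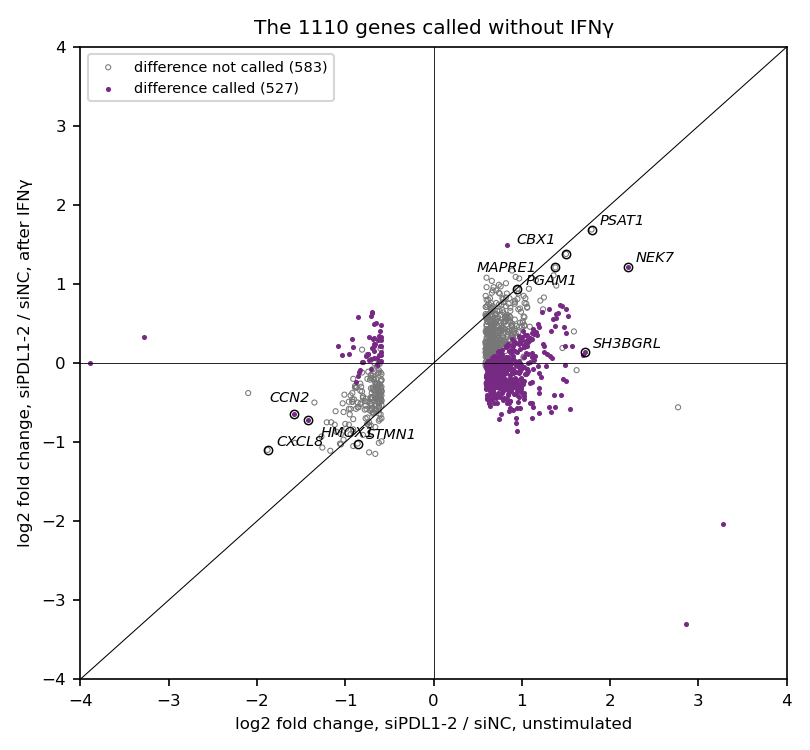
Log2 fold change of siPDL1-2 against siNC without IFNγ (horizontal axis) and after IFNγ (vertical axis) for the 1110 genes called without IFNγ, with the 527 genes whose difference between the conditions was called in purple and a line where both would be equal. *PSAT1*, *PGAM1* and *STMN1* lie near the line, *NEK7*, *CCN2* and *HMOX1* between the line and 0, and *SH3BGRL* near 0 after IFNγ.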

How the data were processed

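RNA-seq of 12 U251 libraries, 2 for each of 6 conditions, was used, with conditions taken from the sample labels. Mapping to GRCh38, counting against Ensembl genes without regard to strand, and normalization were done by the authors in CLC Genomics Workbench, per the study's methods. The deposited signal values are these normalized CPM. In every library 100% of values were whole multiples of 1 read within 0.01 read, and whole reads could be regained for the filter and the count tests.

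Genes were kept with filterByExpr (minimum count 10, minimum total count 15), and 17982 of 45416 were tested with limma on log2(CPM + 1), with trend and robust estimates, all 12 libraries in 6 group means and Benjamini-Hochberg adjustment over all genes. GC content and length were those of GENCODE 44 canonical transcripts, and their trend was removed from each library with natural splines. That alternative and the count test on only the 4 libraries were chosen after seeing the data. The other alternatives were another pseudocount, no filter, other scalings, edgeR's quasi-likelihood and DESeq2's Wald tests, a replicate block, fewer libraries, thinned reads, other thresholds and leaving out each library.

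Named genes were *CD274* and the genes the study names, the 15 largest called changes in each direction above 1 CPM without overlap between groups, up to 4 called genes per list and direction, and 6 per direction in each comparison of differences. Other genes were named after their values were seen. Members and lists were chosen with earlier results of these data known. Tests were checked on simulated data. The tools were DESeq2 1.42.0, edgeR 4.0.16, limma 3.58.1 in R 4.3.3, and Python 3.11.15. Replicates were not duplicates, with a mean chi-square per gene of 1.85 or more. Intervals and floors cover counting error only. Results for some genes of the lists are not reported here.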

Additional observations from a re-analysis of the deposited data

Results flagged for a closer look

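The effect of siPDL1-2 differed between cells with and without IFNγ for 1370 genes by limma, with FDR < 0.01 and a difference above 1.5-fold. The genes with the largest such differences, after IFNγ minus unstimulated on the log2 scale, were as follows. Among overlapping loci, *AL035078.4* differed by 3.89, *AC099329.1* by 3.61, *AL161665.1* by -5.32, *AC011511.4* by -6.16, *AL035461.3*, which overlaps *MCM8*, by -4.15, *AC139530.2*, which overlaps *MRPL12*, by -3.40, *ANKRD10-IT1*, which overlaps *ANKRD10*, by -2.93 and *AC034193.1*, which overlaps *VHL*, by -2.72. Of these 8, *AL035078.4* and *AC011511.4* were called with the GC and length trend removed.

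The others were GC-rich genes. *C4orf48* (GC content 74.4%) differed by 2.58, *CCDC85B* (71.7%) by 2.35, *TPGS1* (74.1%) by 2.03 and *TMEM160* (72.2%) by 1.86. With the trend removed the values were 1.83, 1.62, 1.30 and 1.11, and *CCDC85B* was not called. The replicates of some groups lay far apart in these genes. *CCDC85B* had 1790 and 845 reads in the siNC libraries with IFNγ.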

How the results depend on the processing

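Against siNC, 1110 genes were called (870 higher, 240 lower). With the GC and length trend removed the counts were 642, 397 and 245, and with GC alone 652 in all and 401 higher. With no fold threshold they were 5107, 2960 and 2147. edgeR's quasi-likelihood test called 361 lower, and 402 on only the 4 libraries. Leaving out 1 library gave 960 to 1127, with 742 to 887 higher and 218 to 282 lower. Against siPDL1-1, 783 genes became 269 (157 higher) with the GC and length trend removed, 269 (155 higher) with GC alone and 4338 (2559 higher, 1779 lower) with no fold threshold, and leaving out 1 library gave 648 to 794, with 510 to 653 higher and 123 to 145 lower. For the difference after IFNγ, 1370 (330 higher, 1040 lower) became 247 (100, 147), 242 (104, 138) and 3067 (927, 2140) in the same order, and leaving out 1 library gave 890 to 1662, with 134 to 622 higher and 738 to 1076 lower. The higher count was 168 without siNC replicate 2, 185 and 190 without siPDL1-2 replicates 1 and 2, 622 and 163 without siNC with IFNγ replicates 1 and 2, and 134 without siPDL1-2 with IFNγ replicate 2, where the total was 890. *SLC7A11* (0.23) turned to -0.29 with the GC and length trend removed and -0.27 with GC alone. *CD274* ranged from -0.39 to -0.31 with 1 library left out and was called in none of 17 alternatives. With the replicate number as a block, 876 genes were higher and 235 lower, 1111 in all. *BIVM-ERCC5* (-2.10) and *ZFP91-CNTF* (-1.35) were not called under the block. The labels do not tie a number to an experiment, and deviations of siNC and siPDL1-2 with the same number correlated at 0.018. The causes were not tested. With 2 libraries a group, calls of genes with few reads are limited by depth.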
